A study of Rattus norvegicus with 5 samples.

Results

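Mast cells and basophils are granule-filled immune cells, and 10 genes used to recognise them were followed here in the mesenteric fat around the rat pancreas. The genes are Kit, Gata2, Fcer1a, Ms4a2, Cpa3, Tpsab1, Hdc, Il1rl1, Enpp3 and Milr1. Every probe set annotated with exactly 1 of these symbols was taken, which gave 13 of the 31042 probe sets that are not array controls. The genes were chosen on the diet difference in level on these same 5 arrays, so their levels are given as a description, with no test. A set of 12 of the 13 probe sets passed the filter on dim signals, a mean over all arrays above the 30th percentile, which was 4.28 on the log2 scale. The exception was the second probe set of Gata2.

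The arrays came from male Wistar rats, 7 weeks old and caged singly, with 1 independent sample per array. A pair of rats, the obese group, was given cafeteria food for 30 days, in which fat supplied 66% of calories. The other 3, the lean group, had standard chow for those 30 days, in which fat supplied 8%. Whole pieces of fat were measured on Affymetrix rat genome arrays, so a lower reading can mean fewer cells of a type or less RNA per cell, and these cannot be told apart. All values are log2 RMA expression levels as the authors deposited them, and values of single arrays are listed by replicate number. Nothing in the labels names separate batches, and 2 against 3 arrays limits the precision of every value.

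Fat cell markers were present on every array: adiponectin (Adipoq) read 13.11 and 13.28 on the cafeteria arrays, against 12.94, 13.09 and 13.08 on the standard arrays. Standard array 1 also carried pancreatic acinar RNA. The 10 acinar markers past the filter averaged 9.09 there and 4.14 to 4.68 on the other arrays, cafeteria arrays included. The average hides Cpa1, which read 7.38 and 9.07 on cafeteria arrays, against 9.37, 5.34 and 5.94 on standard arrays. For the genes and lists named below, the difference without cafeteria array 2 or without standard array 1 is given where leaving out that array moved it by over 1.5 times.

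Mast cells grow under stem cell factor, which is the product of Kitlg and signals through the receptor Kit, and they carry a high affinity receptor that holds IgE on the cell surface. Crosslinking of that IgE releases histamine, proteases and heparin from granules, together with newly made lipid mediators. In fat the cells lie along vessels and in connective tissue. Basophils share the IgE receptor and histamine but circulate in blood. Of the 10 genes, Kit is also made by interstitial cells of Cajal and Gata2 by endothelial cells, and Il1rl1 has other sources too. These are not private to mast cells, and whether the remaining genes were private to them in this tissue was not tested. Mcpt8, whose mouse counterpart marks basophils, read 3.01 and 3.10 on cafeteria arrays, against 3.01, 2.92 and 3.01 on standard arrays, all under the filter level. On the mast cell side the label was borne out in part. Of the 10 listed proteases on the array, 6 were above that level in mean, while Mcpt3, Mcpt4 and Mcpt9 were under it, as Mcpt8 was. A basophil share was not separately measurable.

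Upstream sequence is shown for the 3 members whose window held a GATA word, the kind of site that Gata2 and its relatives bind. RefSeq promoter windows were found for 9 of the 10 genes, and Ms4a2 had no entry. The 250 bases before the table's gene start were searched on both strands for AGATAA or AGATAG, and for TGATAA or TGATAG. Such a word was present in 3 of the 9 windows, against 27% of all 33469 windows of that length. The words CACGTG and CATGTG, forms of the E-box that MITF binds, were present in 3 of the 9, against 17.1% of all windows, and no such match overlapped a GATA word. For Milr1, Il1rl1 and Gata2 the table's start lies well inside the annotated gene, so another start may be in use. For Enpp3 the start lies 272 bases inside, so the Enpp3 window shown here falls within the annotated gene. Sequences run 5′ to 3′ on the gene's strand, in build GRCr8, with the GATA words in capitals.

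Cpa3 (chr2:104673238-104673487, minus strand): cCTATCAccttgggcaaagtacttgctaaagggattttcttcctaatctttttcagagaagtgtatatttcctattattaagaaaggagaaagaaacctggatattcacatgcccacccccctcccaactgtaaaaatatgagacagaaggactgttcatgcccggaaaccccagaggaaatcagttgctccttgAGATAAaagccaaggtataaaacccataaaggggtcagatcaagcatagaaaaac
Fcer1a (chr13:88224680-88224929, minus strand): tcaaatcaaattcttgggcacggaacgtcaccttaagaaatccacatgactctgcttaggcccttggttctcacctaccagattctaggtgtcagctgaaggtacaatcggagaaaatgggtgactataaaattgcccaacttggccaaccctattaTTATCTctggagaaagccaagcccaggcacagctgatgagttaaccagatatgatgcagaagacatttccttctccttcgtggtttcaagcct
Enpp3 (chr1:22382739-22382988, plus strand): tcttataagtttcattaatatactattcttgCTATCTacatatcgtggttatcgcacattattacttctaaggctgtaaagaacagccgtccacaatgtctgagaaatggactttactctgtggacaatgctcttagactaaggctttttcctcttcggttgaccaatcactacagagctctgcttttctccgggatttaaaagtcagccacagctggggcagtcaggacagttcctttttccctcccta

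In Cpa3 the GATA words began 249 and 55 bases before the start, and an E-box word began at 144. In Fcer1a the GATA word began at 93 bases and the E-box word at 208, and in Enpp3 the GATA word began at 219 with no E-box word. These matches describe letters, and no binding was measured.

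All 13 probe sets had a lower mean on the cafeteria arrays than on the standard arrays, where 50.9% of all probe sets past the filter did. With 1 probe set per gene, that with the highest mean over all arrays, the median difference of the 10 genes was -0.65 on the log2 scale, against -0.0036 over all 21729 probe sets past the filter. Because this contrast helped to choose the genes, nothing is read from these figures. What they leave out is how the 10 genes divide. For 5 genes cafeteria arrays 1 and 2 both read under the lowest standard array: Milr1, Enpp3, Il1rl1, Gata2 and, by 0.031, Ms4a2. The share of all probe sets past the filter with that arrangement was 14.1%. For the other 5, Kit, Cpa3, Fcer1a, Tpsab1 and Hdc, cafeteria array 1 lay within the range of the standard arrays. Taken singly, cafeteria array 1 was under all standard arrays for 5 of the 10 genes and cafeteria array 2 for 10 of 10, where the shares of all probe sets past the filter were 28.6% and 29.3%. Cafeteria array 2 was the lowest of the 5 arrays for all 10 genes, against 22.3% of all probe sets past the filter.

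**Figure D1:**
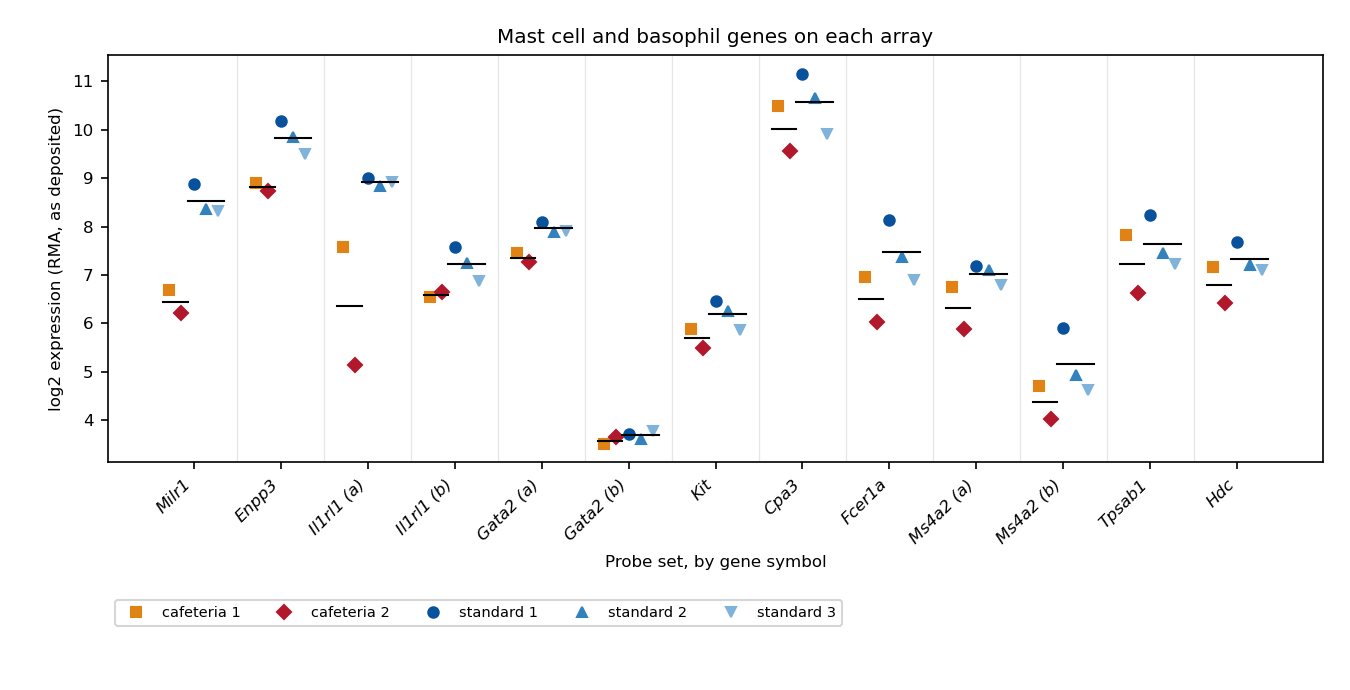
Deposited log2 level (vertical axis) of each of the 13 probe sets (horizontal axis) on the 2 cafeteria arrays and, to their right, the 3 standard arrays; horizontal lines are group means, and (a) and (b) are the brighter and dimmer probe set of a gene. Milr1 and Enpp3 have both cafeteria arrays under the standard ones, while for Cpa3 and Tpsab1 cafeteria 1 sits among them and cafeteria 2 is lowest.

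Kit, the receptor for stem cell factor, read 5.89 and 5.50 on the cafeteria arrays, against 6.45, 6.25 and 5.86 on the standard arrays. Cafeteria array 1 lay just above standard array 3, so the diets overlapped. The difference was -0.49 ± 0.22 (SE of the limma fit over all probe sets, as for the other members), and it was -0.30 without cafeteria array 2. Gata2, a transcription factor that sets up mast cell and basophil genes, read 7.46 and 7.26 on cafeteria arrays, against 8.09, 7.89 and 7.90 on standard arrays. Its difference was -0.60 ± 0.10, and -0.51 without cafeteria array 2, which makes it one of the members least moved by that array. Its other probe set (1391882_at) read 3.52 and 3.65 on cafeteria arrays, against 3.71, 3.62 and 3.79 on standard arrays. That signal was under the filter level, and the diets overlapped on it.

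The IgE receptor is built from an alpha chain that binds IgE, a beta chain that amplifies the signal, and gamma chains shared with other Fc receptors. The alpha chain gene Fcer1a read 6.96 and 6.04 on cafeteria arrays, against 8.13, 7.38 and 6.90 on standard arrays. Its mean was 6.50 ± 0.65 (SD, n = 2) in cafeteria rats and 7.47 ± 0.62 (SD, n = 3) in standard rats, a difference of -0.97 ± 0.47. The standard arrays alone spanned 1.23 log2 units, and cafeteria array 1 fell inside that span. The difference was -0.51 without cafeteria array 2 and -0.64 without standard array 1.

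The beta chain gene Ms4a2 had a pair of probe sets. The brighter one (1369399_at) read 6.76 and 5.88 on cafeteria arrays, against 7.18, 7.11 and 6.79 on standard arrays. The other one (1370783_a_at) read 4.72 and 4.03 on cafeteria arrays, against 5.91, 4.94 and 4.62 on standard arrays. They differed by -0.71 ± 0.30 and -0.78 ± 0.46 between diets, and by -0.27 and -0.44 without cafeteria array 2. Without standard array 1 the second of them differed by -0.40. On both, cafeteria array 2 was lowest, and cafeteria array 1 was close to standard array 3. The gamma chain gene Fcer1g, which macrophages and other myeloid cells also express, read 10.52 and 10.06 on cafeteria arrays, against 11.03, 10.99 and 10.36 on standard arrays. Its difference of -0.50 ± 0.27 had an adjusted p of 0.497 (limma), and it was -0.27 without cafeteria array 2.

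Among granule genes, Cpa3, the mast cell carboxypeptidase, read 10.48 and 9.56 on cafeteria arrays, against 11.15, 10.65 and 9.92 on standard arrays. Its mean was 10.02 ± 0.65 (SD, n = 2) in cafeteria rats and 10.58 ± 0.62 (SD, n = 3) in standard rats. The difference of -0.56 ± 0.47 came down to -0.10 without cafeteria array 2 and -0.27 without standard array 1, and it was 0.19 without both. Cpa3 was highest on standard array 1, the array with acinar RNA, and the part of that RNA in the Cpa3 reading was not tested.

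Tpsab1, a tryptase stored with heparin, read 7.82 and 6.62 on cafeteria arrays, against 8.24, 7.44 and 7.23 on standard arrays. Cafeteria array 1 was above standard arrays 2 and 3, so the difference of -0.42 ± 0.49 was 0.18 without cafeteria array 2. It was -0.12 without standard array 1. Tpsab1 has a close relative in Tpsb2, and whether their probes share signal was not tested. Tpsb2 read 8.00 and 6.99 on cafeteria arrays, against 8.55, 8.00 and 8.00 on standard arrays, a difference of -0.69 ± 0.36 (limma, adjusted p = 0.494) that was -0.18 without cafeteria array 2. Hdc, the enzyme that makes histamine, read 7.17 and 6.43 on cafeteria arrays, against 7.68, 7.21 and 7.11 on standard arrays. Its difference was -0.53 ± 0.29, and -0.17 without cafeteria array 2. Leaving out standard array 1 too gave 0.48 for Tpsab1 and 0.0088 for Hdc.

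Il1rl1 codes for the receptor of the alarm cytokine IL-33. Its brighter probe set (1387273_at) read 7.59 and 5.15 on cafeteria arrays, against 9.01, 8.84 and 8.92 on standard arrays. The standard arrays agreed within 0.17, while cafeteria array 2 minus cafeteria array 1 was -2.44, so the mean of 6.37 ± 1.72 (SD, n = 2) describes neither of them. The difference was -2.55 ± 0.74, and it was -1.33 without cafeteria array 2 and -3.77 without cafeteria array 1. The second Il1rl1 probe set (1370692_at) read 6.55 and 6.64 on cafeteria arrays, against 7.58, 7.26 and 6.87 on standard arrays. Here the cafeteria arrays were almost level, and the difference was -0.64 ± 0.22, or -0.68 without cafeteria array 2. The pair of probe sets thus agreed in sign and disagreed on the size and on which cafeteria array was lower. Il1rl1 gives a membrane and a soluble form, and which form either probe set reads is not given in the sources used here.

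Enpp3 is an ectoenzyme that splits extracellular nucleotides and marks human basophils and mast cells. It read 8.90 and 8.73 on cafeteria arrays, against 10.18, 9.84 and 9.49 on standard arrays. The means were 8.81 ± 0.12 (SD, n = 2) in cafeteria rats and 9.84 ± 0.35 (SD, n = 3) in standard rats, a difference of -1.02 ± 0.22 or 2.03-fold lower. Milr1, an inhibitory receptor that restrains IgE-driven activation in mouse mast cells, read 6.69 and 6.22 on cafeteria arrays, against 8.88, 8.37 and 8.33 on standard arrays. Its difference was -2.07 ± 0.24 or 4.21-fold lower. For both genes the cafeteria arrays were under the lowest standard array. Their distance to it was -0.59 and -0.76 for Enpp3, and -1.64 and -2.11 for Milr1. The differences changed little when cafeteria array 2 was left out, to -0.94 for Enpp3 and -1.84 for Milr1.

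Cafeteria array 2 therefore carried unequal parts of the differences. Over the 10 genes the median difference was -0.40 without it and -1.06 without cafeteria array 1. Without cafeteria array 2, 9 of the 10 genes were still lower, Tpsab1 being the exception, against 10928 of the 21729 probe sets past the filter. In the 5 genes with both cafeteria arrays below, the median was -1.02 over all arrays and -0.94 without cafeteria array 2. In the other 5 it was -0.53 and then -0.17. Leaving out standard array 1 as well, which was the highest array for all 10 genes against 20.7% of all probe sets past the filter, gave a median of -0.18 over the 10 genes. The first 5 genes were then at -0.77 and the other 5 at 0.0088. Of the 10 genes 7 were still lower, against 10595 of the 21729 probe sets past the filter. This split into 5 and 5 was made on these values and is a description.

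**Figure D2:**
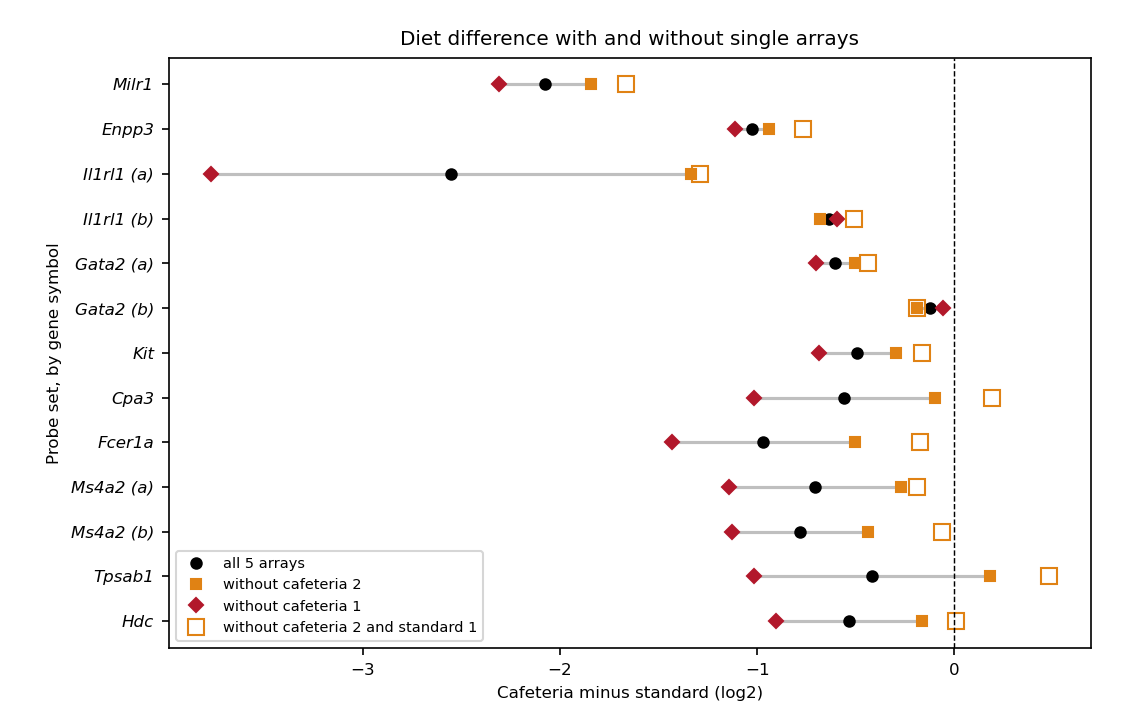
Cafeteria minus standard difference in log2 units (horizontal axis) for each probe set (vertical axis), over all 5 arrays and with 1 or 2 arrays left out; the dashed line marks no difference. Milr1, Enpp3 and the brighter Gata2 probe set are among the 10 of 13 probe sets that stay below 0 under each choice. Cpa3, Tpsab1 and Hdc reach or cross 0 without cafeteria 2 and standard 1.

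The cafeteria arrays were next set against each other. Cafeteria array 2 was lower than cafeteria array 1 for all 10 genes, by a median of -0.81, and for 9330 of the 21729 probe sets past the filter. It was lower by more than 0.5 for 6 of them, against 4.94% of all probe sets past the filter, where the median was 0. The gap was -2.44 for the brighter Il1rl1 probe set, -1.20 for Tpsab1, -0.93 for Fcer1a, -0.92 for Cpa3, -0.88 for Ms4a2 and -0.74 for Hdc. It was -0.47 for Milr1, -0.39 for Kit, -0.19 for Gata2 and -0.17 for Enpp3. Among these probe sets the granule and IgE receptor genes gave gaps from -0.74 to -1.20, and Gata2 and Enpp3 gave small ones. Outside the 10 genes the range was wider, with -0.21 for Gzmb, -0.47 for Fcer1g and -1.57 for Mcpt10. The 3 standard arrays also spread on the same genes, over 1.23 for Cpa3, 1.23 for Fcer1a and 1.01 for Tpsab1, and the gap between the cafeteria arrays can be set against that range. It was wider than the standard range for 4 of the 10 genes, Il1rl1, Ms4a2, Tpsab1 and Hdc, and within it for the other 6. The share of all probe sets with a gap wider than the standard range was not computed, so nothing is read from this count.

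**Figure D3:**
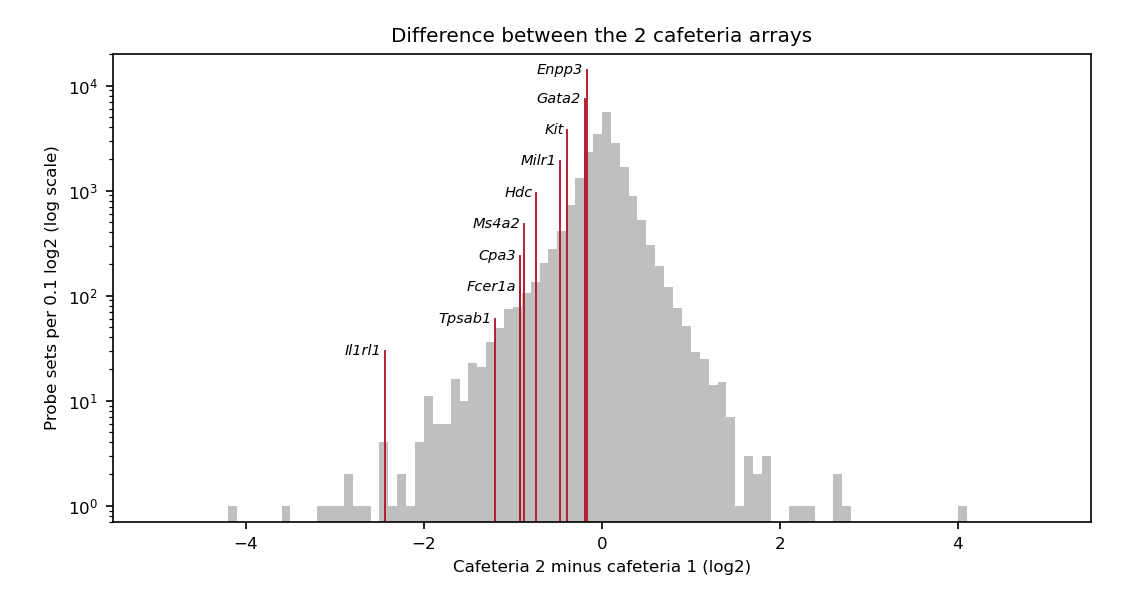
Number of probe sets past the filter (vertical axis, log scale) by the difference between cafeteria 2 and cafeteria 1 in log2 units (horizontal axis); red lines mark the brighter probe set of each of the 10 genes, and line height has no meaning. All 10 lines lie left of 0, with Il1rl1 at -2.44 and Enpp3 at -0.17.

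Other mast cell proteases were read from a list of 20, of which 10 genes were on the array and 6 passed the filter. All 6 had a lower mean in cafeteria rats, and cafeteria array 2 was the lowest array for each of them. The shares of all probe sets past the filter were 50.9% and 22.3%. The chymase Cma1 read 9.97 and 9.27 on cafeteria arrays, against 10.57, 10.22 and 10.13 on standard arrays, a difference of -0.69 ± 0.26 (limma, adjusted p = 0.397), or -0.34 without cafeteria array 2. Mcpt1l1, of the rat mast cell protease 1 family, read 11.19 and 10.16 on cafeteria arrays, against 11.74, 11.22 and 11.19 on standard arrays, a difference of -0.71 ± 0.37 (limma, adjusted p = 0.489), or -0.20 without cafeteria array 2. The members of that family are alike in sequence, and shared signal between them was not tested.

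For 2 of the 6, Cma1 and Gzmb, both cafeteria arrays were under the standard ones. The protease list had a median difference of -0.69 over all arrays and -0.19 without cafeteria array 2. It was -0.0082 when standard array 1 was left out too. Gzmb, better known from killer lymphocytes, differed by -0.20 ± 0.10 (limma, adjusted p = 0.474), or -0.098 without cafeteria array 2. At an unadjusted p under 0.05 the list had 0 genes in either direction, against 6.62% of all probe sets past the filter lower in cafeteria rats and 6.05% higher. No probe set on the array passed an adjusted p of 0.05 in limma (0%), while 2754 had an unadjusted p under 0.05.

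Genes that carry the signal from the IgE receptor were mostly lower by smaller amounts, 20 of 21 in mean, with a median difference of -0.19. The median was -0.091 without cafeteria array 2 and -0.11 without standard array 1. At an unadjusted p under 0.05, 3 were lower and 0 higher. Of all probe sets past the filter, 50.9% had a lower mean, and 6.62% were lower and 6.05% higher at that p. Prkcb, a protein kinase C, differed by -0.69 ± 0.16, the ubiquitin ligase Cblb by -0.48 ± 0.12 and the adaptor Lcp2 by -0.68 ± 0.24, with adjusted p (limma) of 0.276 for Prkcb and 0.298 for Cblb. Prkcb was at -0.45 without cafeteria array 2. For these 3 both cafeteria arrays lay below the standard arrays. They are used by lymphocytes and other leukocytes too.

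Mediator synthesis and storage genes had 14 of 17 lower in mean, against 50.9% of all probe sets past the filter. Their median was -0.26, or -0.12 without cafeteria array 2. At an unadjusted p under 0.05, 2 were lower and 0 higher, against 6.62% and 6.05% of all probe sets past the filter. The 2 lower genes were Stx4, a membrane fusion protein, at -0.31 ± 0.08, and Rab27a, which brings granules to the membrane. Rab27a was at -0.53 ± 0.19, or -0.29 without cafeteria array 2. The heparan sulfate enzyme Ext1 differed by 0.20 ± 0.08, or 0.12 without cafeteria array 2. The granule membrane protein Cd63, present in most cells, differed by 0.039 ± 0.075. It differed by 0.066 without cafeteria array 2 and by 0.083 without standard array 1. The amine transporter Slc18a2, which loads histamine into granules, read 6.62 and 6.13 on cafeteria arrays, against 7.36, 6.77 and 6.81 on standard arrays. Its difference was -0.61 ± 0.25 (limma, adjusted p = 0.435), and -0.36 without cafeteria array 2.

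Growth and alarm signals for mast cells had 12 of 13 genes lower in mean, with a median of -0.32. At an unadjusted p under 0.05, 5 were lower and 0 higher. Over all probe sets past the filter, the shares were 50.9% lower in mean, and 6.62% lower and 6.05% higher at that p. Kitlg, the ligand of Kit, read 9.30 and 9.12 on cafeteria arrays, against 9.47, 9.60 and 9.52 on standard arrays, a difference of -0.32 ± 0.08 (limma, adjusted p = 0.299). Both cafeteria arrays were below all standard arrays on this probe set, as on the s_at probe set at -0.48 ± 0.24. They were not on the third past the filter, at -0.34 ± 0.24, or -0.16 without cafeteria array 2. Il33, the ligand of the Il1rl1 receptor, read 11.82 and 11.46 on cafeteria arrays, against 12.02, 12.00 and 11.94 on standard arrays. Its difference was -0.35 ± 0.12 (limma, adjusted p = 0.362), and -0.17 without cafeteria array 2.

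The eosinophil attractant Ccl11 differed by -1.99 ± 0.36 (limma, adjusted p = 0.253), and by -1.89 without cafeteria array 2. The IL-4 receptor chain Il4r differed by -0.37 ± 0.12. Mean levels in cafeteria rats were thus lower for the ligands Kitlg and Il33. Their receptors Kit and Il1rl1 were chosen on this contrast, so nothing is read from setting them side by side.

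Transcription factors of mast cells had 8 of 13 lower in mean and a median of -0.16, or -0.086 without standard array 1. At an unadjusted p under 0.05, 3 were lower and 0 higher. Among all probe sets past the filter, 50.9% were lower in mean, and 6.62% were lower and 6.05% higher at that p. Tal1 differed by -0.45 ± 0.06 and Lmo2 by -0.44 ± 0.15, both also made by endothelial cells. Gata3, made by type 2 lymphoid cells, differed by -0.53 ± 0.16 on its brighter probe set. Mitf, which drives Kit and protease genes, read 7.87 and 7.81 on cafeteria arrays, against 8.15, 8.05 and 7.80 on standard arrays, a difference of -0.16 ± 0.12 with overlapping arrays. Without standard array 1 it was -0.086. Cebpa, a fat cell factor as well, differed by 0.27 ± 0.11. Of the histamine receptor and breakdown genes 3 of 6 passed the filter, with a median of -0.24. Hrh3 differed by -0.24 ± 0.09, the 1 gene of the 3 with an unadjusted p under 0.05, Aoc1 by -0.80 ± 0.81 and Hrh1 by -0.049 ± 0.058. Without cafeteria array 2 these were -0.48 for Aoc1 and -0.089 for Hrh1, and Hrh1 was at -0.026 without standard array 1.

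Markers of other cells were read on the same arrays, since Kit, Gata2 and Il1rl1 have other sources. The 10 endothelial markers past the filter were all lower in mean, by a median of -0.45, with 5 lower at an unadjusted p under 0.05. Of all probe sets past the filter, 50.9% were lower in mean and 6.62% lower at that p. Sox17 differed by -0.76 ± 0.12, Egfl7 by -0.65 ± 0.12 and Emcn by -0.47 ± 0.12. Their order differed from that of the 10 mast cell and basophil genes, since cafeteria array 1 was the lowest for all 10 endothelial markers. That array was the lowest for 4635 of the 21729 probe sets past the filter. The endothelial mean level was 8.32 and 8.78 on cafeteria arrays, against 8.98, 8.96 and 9.05 on standard arrays, and the part of endothelial RNA in the Gata2 difference was not tested.

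The list of interstitial cell of Cajal and melanocyte markers had 3 genes past the filter, the chloride channel Ano1, Etv1 and Prkcq. Their mean level was 7.56 and 6.50 on cafeteria arrays, against 7.77, 7.71 and 7.71 on standard arrays. Etv1 differed by -0.53 ± 0.21 and Prkcq by -0.77 ± 0.33, or by -0.20 and -0.24 without cafeteria array 2. Ano1 read 7.78 and 6.31 on cafeteria arrays, against 7.78, 7.78 and 8.01 on standard arrays. Ano1 differed by -0.81 ± 0.46, or -0.079 without cafeteria array 2. The dip on cafeteria array 2 was thus present in these 3 genes, as it was in the lymphocyte markers below. Which cells the 3 genes were read from, and their part in the Kit result, were not tested. The melanocyte genes of the list, Tyr, Dct, Pmel, Mlana and Tyrp1, did not pass the filter.

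T cell and innate lymphoid markers had 13 of 14 lower in mean and 0 with an unadjusted p under 0.05. Of all probe sets past the filter, 50.9% were lower in mean, and 6.62% were lower and 6.05% higher at that p. The median difference of these markers was -0.42, or -0.19 without cafeteria array 2. Their mean level was 5.72 and 5.26 on cafeteria arrays, against 6.12, 5.97 and 5.67 on standard arrays. Cd5 differed by -0.70 ± 0.28, Lck by -0.69 ± 0.30, Cd8a by -0.46 ± 0.19 and Cd4 by -0.15 ± 0.33. Without cafeteria array 2 the values were -0.36 for Cd5, -0.44 for Lck and 0.0048 for Cd4. The 3 B cell markers past the filter averaged 6.12 and 4.93 on cafeteria arrays, against 6.14, 6.44 and 5.86 on standard arrays, and all 3 were lowest on cafeteria array 2. Ms4a1 stood at -0.87 ± 0.71, Blnk at -0.57 ± 0.26 and Cd79b at -0.42 ± 0.27. Without cafeteria array 2 these were 0.16 for Ms4a1, -0.18 for Blnk and -0.058 for Cd79b, and the median of the 3 was -0.058 in place of -0.57. The low readings of cafeteria array 2 thus extended to lymphocyte markers. Against cafeteria array 1 the median was -0.35 for the T cell list and -0.78 for the B cell list, beside -0.81 for the 10 genes. It was -0.31 for macrophage markers, -0.22 for mediator genes and -0.13 for IgE receptor signalling genes. Endothelial, neutrophil and fat cell markers went the other way, at 0.38, 0.57 and 0.17.

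Macrophage markers had 11 of 12 lower in mean and a median of -0.22, or -0.12 without cafeteria array 2. At an unadjusted p under 0.05, 1 was lower (Lgals3, -0.42 ± 0.12) and 1 higher (Trem2, 0.40 ± 0.12). Of all probe sets past the filter, 50.9% had a lower mean, with 6.62% lower and 6.05% higher at that p. C1qa was at -0.36 ± 0.17, or -0.16 without cafeteria array 2. The mean level of the macrophage markers was 9.45 and 9.21 on cafeteria arrays, against 9.75, 9.61 and 9.27 on standard arrays. Granulocyte lists were thin. Of the eosinophil markers Alox15 and Siglec5 passed the filter, at 0.12 ± 0.24 and -0.032 ± 0.117, while Epx and Prg2, which define these cells, did not. Of the neutrophil markers Lcn2 and Cxcr2 passed, at -0.62 ± 0.32 and 0.18 ± 0.13, and S100a8 and S100a9 did not. None of these 4 had an unadjusted p under 0.05. Without cafeteria array 2 they were at 0.42 for Alox15, -0.021 for Siglec5, -1.01 for Lcn2 and 0.0077 for Cxcr2, and without standard array 1 Alox15 was at 0.26 and Siglec5 at 0.052. Acinar markers differed by a median of -1.50 with standard array 1 and 0.17 without it, and none had an unadjusted p under 0.05. Pnliprp1 differed by -1.78 ± 1.79 and Cel by -1.28 ± 1.35, or by -0.088 and -0.0028 without standard array 1. Cpa1, the 1 acinar marker of the 10 with a higher mean in cafeteria rats, read 7.38 and 9.07 on cafeteria arrays, against 9.37, 5.34 and 5.94 on standard arrays. It differed by 1.34 ± 1.42, or 0.50 without cafeteria array 2 and 2.59 without standard array 1.

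Fat cell markers had the other sign. All 10 were higher in mean in cafeteria rats, by a median of 0.34, and 6 had an unadjusted p under 0.05. Of all probe sets past the filter, 50.9% were lower in mean and 6.05% were higher at that p. Leptin (Lep) differed by 1.59 ± 0.20, Plin4 by 0.84 ± 0.15 and Cidec by 0.39 ± 0.11 (0.25 without cafeteria array 2), and Fabp4 by 0.21 ± 0.10. Their mean level was 12.01 and 12.19 on cafeteria arrays, against 11.51, 11.66 and 11.67 on standard arrays. Cafeteria array 2, lowest for the 10 mast cell and basophil genes, was highest for this list, and standard array 1, highest for the 10 genes, was lowest for it. Whether a different make-up of the tissue pieces stands behind these levels was not tested.

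**Figure D4:**
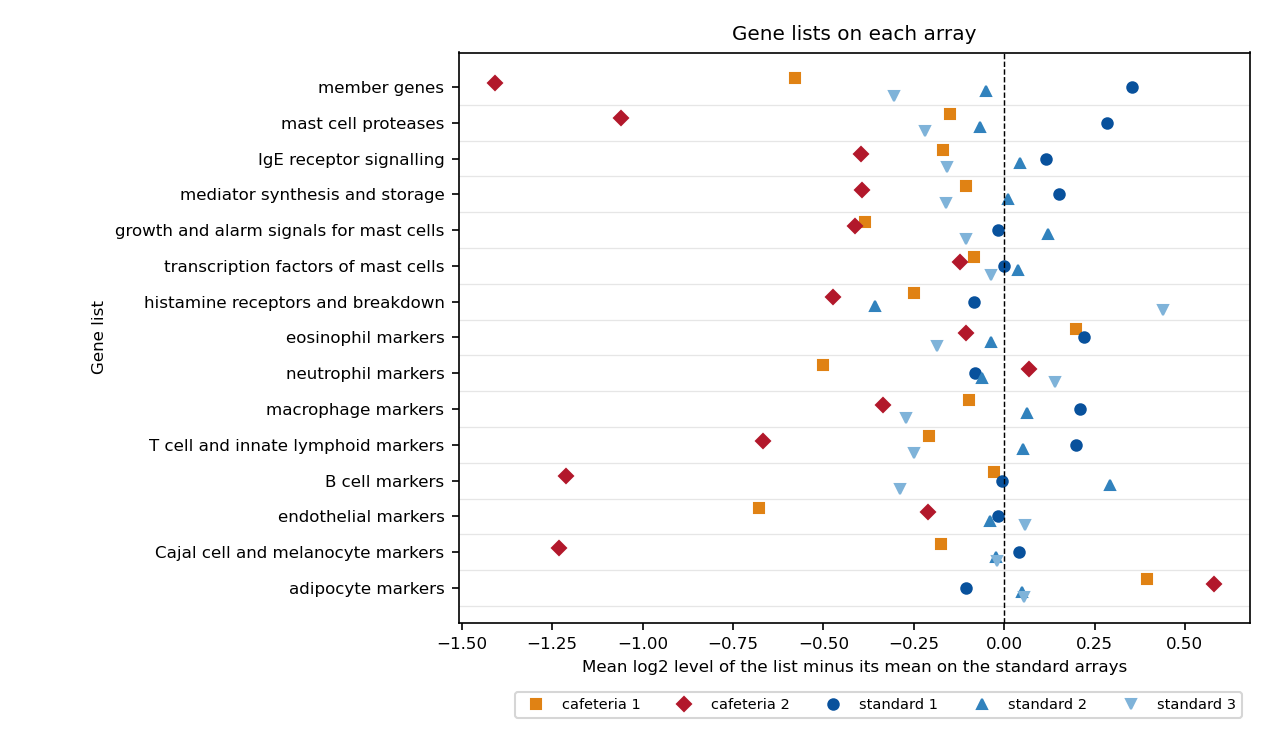
Mean log2 level of each list's genes past the filter on each array, minus the mean of the 3 standard arrays (horizontal axis), for the 10 member genes and 14 lists (vertical axis); the acinar list is left out because standard 1 is far off the scale. Cafeteria 2 is lowest for the members and for most of the lists, the macrophage list included. Cafeteria 1 is lowest for the endothelial and neutrophil lists, standard 3 for the eosinophil list and standard 1 for the adipocyte list.

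Genes with a profile like that of the members were sought over all 5 arrays. The mean profile of the 10 genes, each centred on its own mean, was -0.18 and -1.01 on cafeteria arrays, against 0.75, 0.35 and 0.09 on standard arrays. Likeness was the root mean square distance from it, among 11499 genes past the filter. Nearest were Cxcr3, a chemokine receptor of T cells, at a distance of 0.0638, and Rac2, a GTPase of blood cells that takes part in degranulation, at 0.070, where the median gene stood at 0.598. Lrat, Chi3l1, St6galnac2, Cd3e, Rhoh, Meox1, Sctr and Kctd14 followed, at up to 0.151.

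Cxcr3 read 5.29 and 4.58 on cafeteria arrays, against 6.20, 5.94 and 5.69 on standard arrays. Rac2 read 9.33 and 8.48 on cafeteria arrays, against 10.08, 9.72 and 9.48 on standard arrays. Cxcr3, Cd3e and Rhoh are known from lymphocytes and Lrat from retinoid storing cells. Of the 10 nearest genes, Cd3e was on the T cell and innate lymphoid list and the others were on no list. Of the 50 nearest, 9 were on a list. With 5 arrays many genes can share a profile, and nothing about shared control follows.

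**Figure D5:**
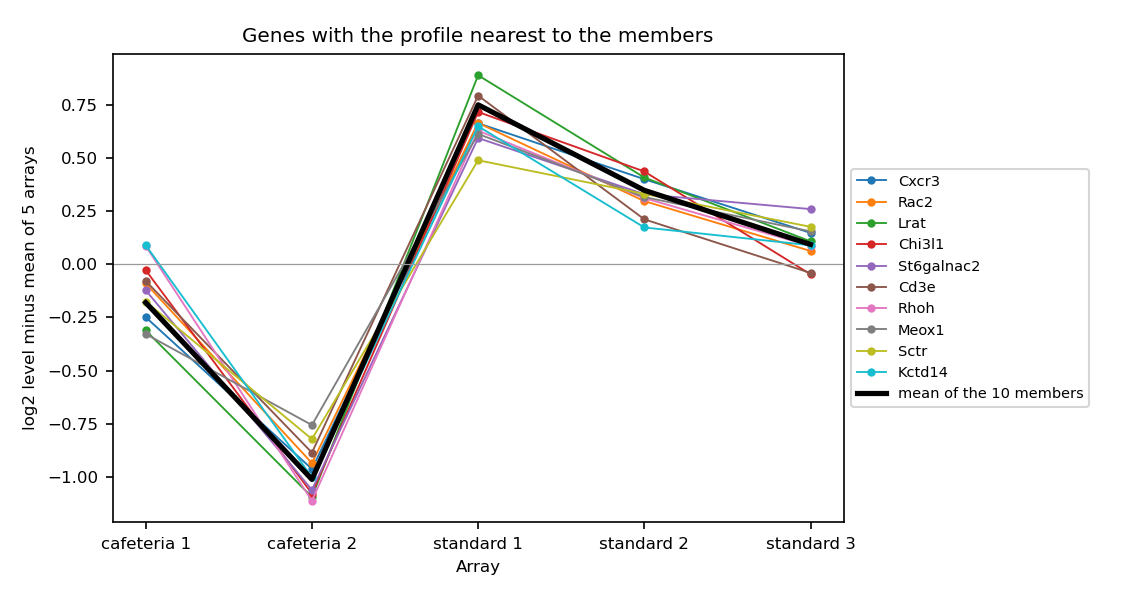
Log2 level minus the mean of the 5 arrays (vertical axis) on each array (horizontal axis) for the 10 genes nearest to the members, with the mean of the 10 members as the thick black line. All the lines are lowest on cafeteria 2, where the members' mean is at -1.01, and highest on standard 1, where it is at 0.75.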

How the data were processed

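The values are log2 expression levels per probe set, deposited by the authors. RMA and the affy package are named, without versions, per the submitters' processing notes. RMA makes array distributions alike, which can hide a shift shared by most transcripts. Array medians lay between 5.70 and 5.75, and any pair of arrays had 11.7% to 14.7% identical values, so none was merged.

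After removal of 57 controls, the diets were compared over the 21729 probe sets whose mean passed the 30th percentile. The moderated test of limma 3.58.1 (lmFit, eBayes) ran under R 4.3.3 and was two-sided, with Benjamini-Hochberg adjustment and differences taken as cafeteria minus standard. P-values measure the spread between these samples. Figures were drawn with matplotlib 3.10.9.

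Symbols came from GEO's platform annotation, which gave a single symbol to 20826 probe sets, more than one to 436 and no symbol to 9780. All 10 members were found in the RefSeq gene table under the same symbol. Promoters are RefSeq's, build GRCr8.

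The members and the 15 lists were chosen with earlier results of these data known. From each list the genes named were the 3 with the smallest unadjusted p and the one with the highest mean, plus Fcer1g, Kitlg, Il33, Cma1, Tpsb2, Mitf, Cpa1, Adipoq and Lep, and the 10 nearest profiles. Mcpt8, Slc18a2 and the named markers under the filter were chosen after their values were seen. The closing section gives the alternatives.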

Additional observations from a re-analysis of the deposited data

How the results depend on the processing

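With limma, 0 probe sets were under 0.05 after adjustment in any of the 13 alternatives run, in which the smallest adjusted p lay between 0.0623 and 0.473. The number with an unadjusted p under 0.05 was 2754, and it ran from 1981 without standard replicate 2 to 4171 without cafeteria replicate 1. Quantile normalization gave 1564 higher and 1222 lower, against 1315 and 1439 as deposited. Labels do not say that shared replicate numbers mark pairs: the deviations of same-numbered arrays correlated at 0.079 and -0.037, and with the number as a replicate block the count was 2206 and the median difference of the 10 genes -0.86.

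That median was -0.65, stayed between -0.62 and -0.66 under quantile and cyclic loess normalization, array weights and the other summaries of probe sets, and ran from -1.06 to -0.40 when 1 array was left out. Without cafeteria replicate 2 and standard replicate 1 together, an alternative chosen after seeing the data, it was -0.18. The sign turned there for Cpa3 (0.19), Tpsab1 (0.48) and Hdc (0.0088), and for Tpsab1 also without cafeteria replicate 2 alone (0.18). With 1 array left out at a time, Cpa3 ran from -1.02 to -0.10, Tpsab1 from -1.02 to 0.18 and Hdc from -0.90 to -0.17. The cause was not tested. The number of arrays, 2 against 3, limits all of these values.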
